A study of Mus musculus with 4 samples.

Results

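The TGF-beta, activin and bone morphogenetic protein (BMP) family was described here as 55 genes of 32285 in the tables, taken by symbol: the ligands Tgfb1 to Tgfb3, the activin and inhibin subunits (Inha and every Inhb gene), the Bmp and Gdf genes, the Tgfbr, Bmpr and Acvr receptors, the follistatins (Fst and the Fstl genes), antagonists such as Grem1 and Nog, the latent TGF-beta binding proteins Ltbp1 to Ltbp4, and Smad6 and Smad7. By role these are 3 TGF-beta ligands, 5 activin or inhibin subunits, 10 BMP ligands, 10 GDF ligands, 12 receptors, 5 secreted antagonists, 3 follistatin-like genes, 4 latent TGF-beta binding proteins, 2 inhibitory Smads and the protease gene Bmp1, which the symbol rule takes in with the BMPs. In all, 49 members had at least 30 UMIs (unique molecular identifiers, which count RNA molecules) over the libraries together, 5 had 1 to 29, and Gdf1 had none. Those 5 were Bmp10, Inhbe, Inhbc, Gdf7 and Gdf2.

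Single-cell RNA sequencing (10x Genomics Chromium 3′ v3.1) was run on 4 libraries of skin from female C57BL/6J mice 6 to 8 weeks old, and each library pooled the ear and neck skin of 3 mice. The MC903 library came from skin treated daily with 1 nmol of calcipotriol in ethanol, a vitamin D analogue, and taken on day 9. The oxazolone day 16 and oxazolone day 10 libraries came from mice sensitised with a 3% solution of this contact hapten and challenged from 7 days later with a 1.0% solution. The untreated library came from skin without either agent, and the labels name no vehicle-treated library. All libraries were digested with collagenase to raise the yield of fibroblasts and passed through dead cell removal. With 1 library per group no difference could be tested: intervals below are exact 95% intervals that cover counting error only, and mice, harvest and library preparation cannot be told apart from the treatment.

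Ligands of this family are made as precursors and act as dimers. TGF-betas are stored in the matrix bound to latent TGF-beta binding proteins, activins are dimers of inhibin beta subunits, and follistatin, noggin and gremlin 1 bind ligands and block them. A ligand brings together type II receptors (Tgfbr2, Acvr2a, Acvr2b, Bmpr2) and type I receptors (Tgfbr1, Acvr1, Acvr1b, Acvr1c, Acvrl1, Bmpr1a, Bmpr1b), which phosphorylate Smad proteins, while Smad6 and Smad7 restrain that signal. In skin the family is known for its part in wound repair, matrix deposition and the hair cycle.

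Promoter sequence is shown for 3 ligand genes, chosen after their values were seen, on which results below turn: Inhba, which was high in myeloid and papilla cells, and Tgfb2 and Bmp4, which were low in fibroblasts of oxazolone-treated skin. Each is the 250 bases before the annotated start, from RefSeq on GRCm38.p6, written 5′ to 3′ on the strand of the gene with matches to the searched motifs in capitals. Inhba lies on the plus strand (chr13:16011601-16011850), Tgfb2 on the minus strand (chr1:186705990-186706239) and Bmp4 on the minus strand (chr14:46390670-46390919).
Inhba: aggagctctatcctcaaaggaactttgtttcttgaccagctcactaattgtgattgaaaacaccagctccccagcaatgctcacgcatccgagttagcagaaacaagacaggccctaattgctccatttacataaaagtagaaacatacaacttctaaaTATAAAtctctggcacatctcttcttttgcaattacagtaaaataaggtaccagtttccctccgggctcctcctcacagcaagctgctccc
Tgfb2: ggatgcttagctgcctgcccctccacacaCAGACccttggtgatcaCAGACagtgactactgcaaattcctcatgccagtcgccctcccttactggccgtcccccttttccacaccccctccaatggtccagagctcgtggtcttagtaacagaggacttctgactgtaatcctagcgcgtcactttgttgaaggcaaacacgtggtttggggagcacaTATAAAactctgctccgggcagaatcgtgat
Bmp4: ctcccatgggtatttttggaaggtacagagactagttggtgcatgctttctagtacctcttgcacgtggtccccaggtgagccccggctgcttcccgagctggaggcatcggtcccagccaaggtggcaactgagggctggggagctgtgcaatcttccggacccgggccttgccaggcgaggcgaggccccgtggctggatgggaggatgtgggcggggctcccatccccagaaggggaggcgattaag
The GC content was 43.2% for Inhba, 53.6% for Tgfb2 and 63.2% for Bmp4. Both strands were searched for TATAAA (the TATA box), CAGAC (a Smad binding element), TGANTCA (the AP-1 motif), GGCGCC (a GC-rich Smad element) and TGACGTCA (the cyclic AMP response element), none of which contains another. Inhba held TATAAA, Tgfb2 held TATAAA and CAGAC at 2 places, and Bmp4 held none of the 5. Of all 32851 windows of this length in the table, 12.37% held TATAAA, 42.19% CAGAC, 6.749% TGANTCA, 9.586% GGCGCC and 1.546% TGACGTCA. Among the 50 windows of the 40 members that matched the table, TATAAA was in 8, CAGAC in 28, TGANTCA in 0, GGCGCC in 7 and TGACGTCA in 2.

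After filters and doublet removal 3703, 7371, 7694 and 7221 cells were kept in the MC903, oxazolone day 16, oxazolone day 10 and untreated libraries, whose deposited totals ranged from 73054242 to 119717836 UMIs. Clustering without the member genes gave 44 clusters, of which the named ones formed 21 classes. Cell makeup differed widely: fibroblast-like cells were 33.8%, 4.84%, 6.76% and 27.8% of kept cells in that order, and neutrophil-like cells were 8.40%, 57.3%, 23.3% and 0.319%. Levels are therefore given per class, as CPM, the UMIs of a gene per 1000000 UMIs of the class. A UMI stands for a molecule read at its 3′ end, so gene length does not enter. Pairs of libraries shared between 5 and 16 cell barcodes. All comparisons with untreated skin share the 1 untreated library.

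Fibroblast-like cells led for most members in the MC903 and untreated libraries, but not in the oxazolone libraries. They were the leading class, by share of a gene's UMIs, for 35 of 46 members with at least 30 UMIs in the MC903 library, 23 of 47 in oxazolone day 16, 9 of 48 in oxazolone day 10 and 27 of 46 in untreated skin. The class held 44.3%, 13.1%, 11.6% and 29.8% of all UMIs of these libraries in that order. Leads were not counted over all genes, so these counts are not set apart from the size of the class. In oxazolone day 10 keratinocyte-like cells led for 13 members, macrophage or monocyte-like cells for 8 and dermal papilla-like cells for 7. These classes held 21.6%, 23.7% and 2.58% of the UMIs of that library. Gdf5 and Gdf6, growth factors of joints and cartilage, were led by chondrocyte-like cells in all 4 libraries, and Fstl4 by melanocyte-like cells. Gdf3 was led by macrophage or monocyte-like cells in both oxazolone libraries, with 95.4% of 304 UMIs on day 16 and 95.6% of 135 UMIs on day 10. The MC903 library had 3 UMIs of Gdf3 and the untreated library had 4.

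**Figure D1:**
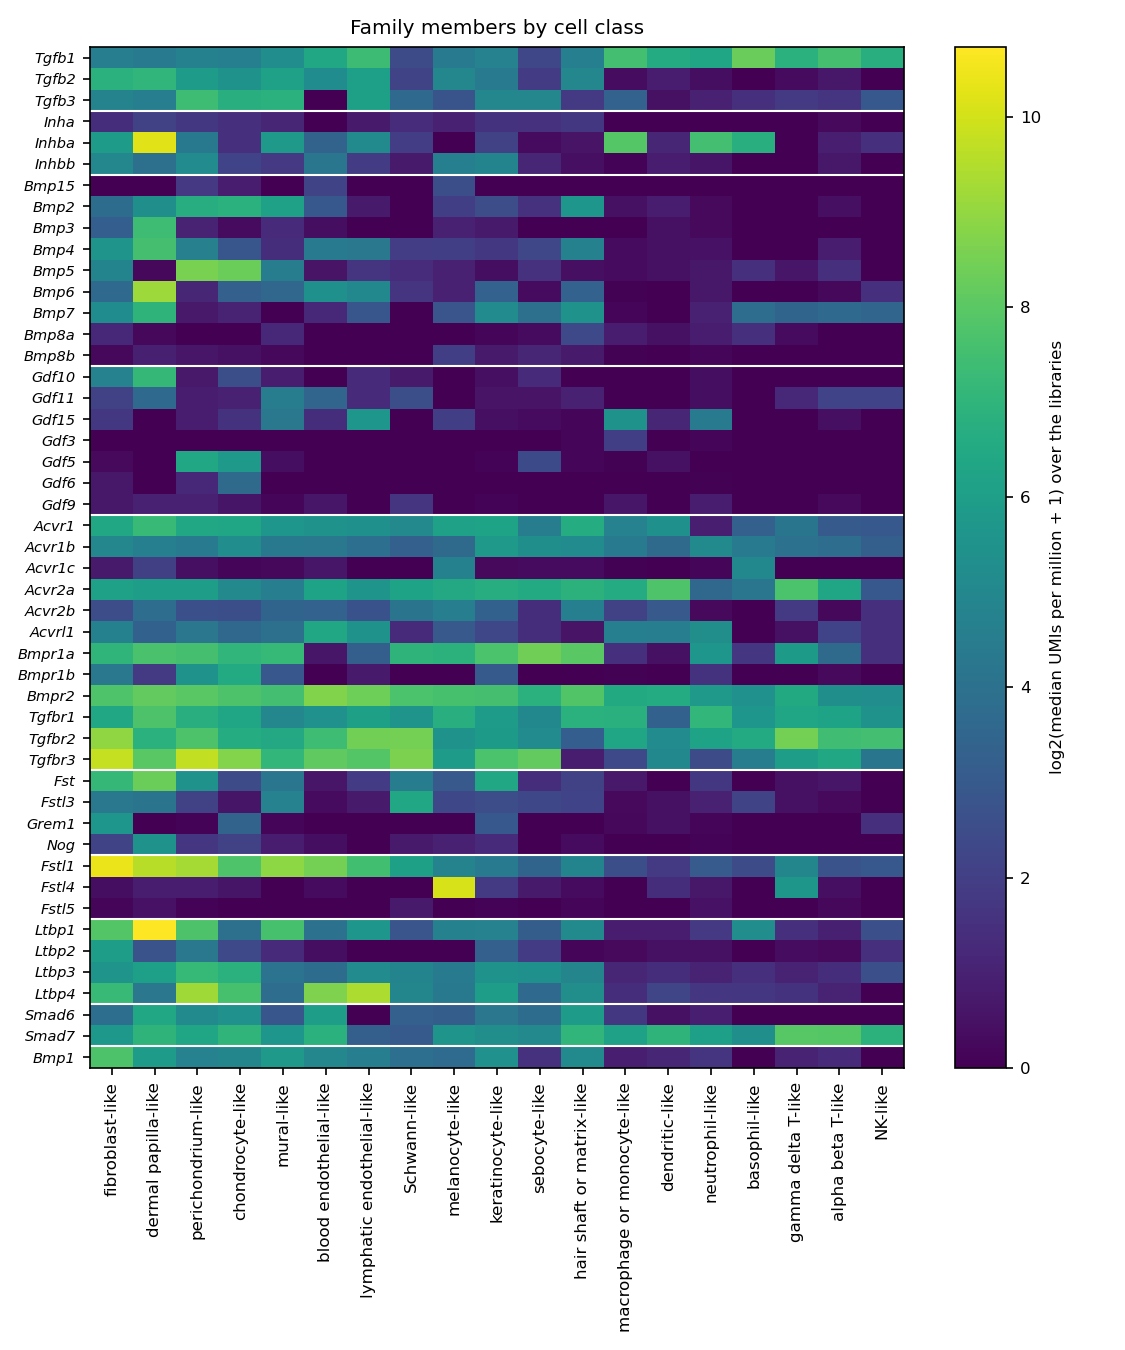
Level of members with at least 30 UMIs (rows, grouped by role) in the cell classes (columns), as log2 of the median CPM plus 1 over the libraries with at least 50 cells of the class; colours compare classes along a row. Fstl1 and Tgfbr3 are bright in the fibroblast-like column, Inhba marks the dermal papilla-like and myeloid columns and Fstl4 the melanocyte-like column.

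Inhba encodes the subunit of activin A. Of the members with at least 30 UMIs in every library it had the highest ratio between its highest and lowest whole-library levels. It had 4024 UMIs (58.9 CPM) in MC903, 30297 UMIs (311 CPM) in oxazolone day 16 and 5229 UMIs (49.8 CPM) in oxazolone day 10, against 1105 UMIs (13.4 CPM) in untreated skin. The class that held most of them differed too. Macrophage or monocyte-like cells held 47.6% of the Inhba UMIs in MC903 and 50.4% in oxazolone day 16, dermal papilla-like cells held 42.5% in oxazolone day 10, and fibroblast-like cells held 62.7% in untreated skin.

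In macrophage or monocyte-like cells Inhba had 1915 UMIs in 180 cells of MC903, 15272 in 1482 cells of oxazolone day 16 and 531 in 1931 cells of oxazolone day 10, against 1 UMI in 139 cells of untreated skin. As levels these were 457, 491 and 21.3 CPM against 0.741 CPM. The log2 ratio over untreated was 9.27 in MC903 (6.79 to 14.57), 9.37 in oxazolone day 16 (6.89 to 14.68) and 4.85 in oxazolone day 10 (2.36 to 10.15), each resting on that single untreated UMI. Oxazolone day 16 exceeded day 10 by a log2 ratio of 4.52 (4.40 to 4.65). Of these UMIs, 1865, 15080 and 363 sat in 1 cluster of the class, led by Arg1 and Ccl24. Arg1 is a textbook marker of alternatively activated macrophages. This cluster had an Inhba level of 1064 CPM in 79 cells of MC903, 698 CPM in 1063 cells of oxazolone day 16 and 276 CPM in 115 cells of oxazolone day 10, and it had 0 cells in untreated skin. The C1q-rich cluster that made up most of the class on oxazolone day 10 had 16.6 CPM of Inhba in 110 cells on day 16 and 5.98 CPM in 1229 cells on day 10. In another cluster of the class, led by Ccl8 and Cd163, with 155 and 153 cells on days 16 and 10, the day 16 to day 10 log2 ratio of Inhba was 3.53, from 38 and 2 UMIs, and untreated cells there had 0 UMIs in 56 cells. The summed level of the 6 neutrophil markers in macrophage or monocyte-like cells was 901, 1738 and 651 CPM in MC903, oxazolone day 16 and oxazolone day 10, against 86.7 CPM in untreated skin; their part in the result was not tested.

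Neutrophil-like cells had an Inhba level of 185 CPM in MC903, 341 CPM in oxazolone day 16 and 35.4 CPM in oxazolone day 10, while the untreated library held 23 such cells, too few to compare. Oxazolone day 16 exceeded day 10 by a log2 ratio of 3.27 (3.11 to 3.43), from 11207 and 334 UMIs. The clusters that both days shared did not give 1 answer. In the one with 1067 and 203 cells the levels were 68.8 CPM on day 16 and 74.0 CPM on day 10, a log2 ratio of -0.11. In another the level was higher on day 16, with 425 CPM in 1810 cells (414 to 437), against 169 CPM in 163 cells of day 10 (138 to 203). A further cluster, with 1255 cells on day 16 and 14 on day 10, had 558 CPM on day 16. Basophil-like cells, a class of 63, 57 and 79 cells, had 107 CPM in MC903, 431 CPM in oxazolone day 16 and 6.61 CPM in oxazolone day 10. The log2 ratio of day 16 over day 10 was 6.02 (4.46 to 8.32), from 194 and 3 UMIs. In the same basophil-like cells the 6 neutrophil markers summed to 11216 CPM on day 16 and 1977 CPM on day 10, and their part in the Inhba difference was not tested.

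Dermal papilla-like cells, the hair-inductive fibroblasts, had the highest Inhba level of any class with at least 50 cells: 1594 CPM in 65 cells of oxazolone day 16 and 819 CPM in 202 cells of oxazolone day 10, a log2 ratio of 0.96. MC903 and untreated skin held 20 and 27 such cells, under the 50 needed for a comparison. Fibroblast-like cells had 23.0 CPM in MC903, 87.5 CPM in oxazolone day 16 and 149 CPM in oxazolone day 10, against 28.2 CPM in untreated skin. Oxazolone day 10 was thus the highest of the 4 in the fibroblast-like class, whereas day 16 had the highest class level in macrophage or monocyte-like cells, where MC903 was close to it and higher within the Arg1/Ccl24 cluster. The log2 ratio over untreated was -0.30 (-0.45 to -0.14) in MC903, 1.63 (1.50 to 1.77) in oxazolone day 16 and 2.40 (2.27 to 2.53) in oxazolone day 10. The MC903 ratio was 1.31 where putative doublets were kept.

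In oxazolone day 16 chondrocyte-like and keratinocyte-like cells had lower Inhba levels than the classes described above, and in both that library was the highest. The chondrocyte-like level was 1.03 CPM in MC903, 25.3 CPM in oxazolone day 16 and 2.45 CPM in oxazolone day 10, against 1.06 CPM in untreated skin, and the keratinocyte-like level was 4.38, 7.38 and 2.21 CPM against 0.647 CPM. The log2 ratio of oxazolone day 16 over untreated was 4.58 (3.58 to 5.76) in chondrocyte-like cells, from 80 and 9 UMIs, and 3.51 (2.53 to 4.52) in keratinocyte-like cells, from 22 and 17 UMIs. In oxazolone day 16, 13.8% of keratinocyte-like cells (27155 UMIs) and 4.35% of gamma delta T-like cells (10603 UMIs) had an Inhba UMI, against 46.2% of macrophage or monocyte-like cells (20987 UMIs). With every cell thinned to 1000 UMIs, and shallower cells left out, the macrophage or monocyte-like share was 10.7% of 177 cells in MC903, 17.4% of 1463 cells in oxazolone day 16 and 1.43% of 1892 cells in oxazolone day 10. In untreated skin it was 0 of 137 cells, which allows a share of up to 2.66%. In oxazolone day 16 the thinned share was 1.65% in 121 chondrocyte-like cells, 0.629% in 159 gamma delta T-like cells and 0 of 91 keratinocyte-like cells, which allows up to 3.97%. The 6 neutrophil markers summed to 1634 CPM in chondrocyte-like and 2835 CPM in keratinocyte-like cells of oxazolone day 16, against 2.59 and 7.76 CPM in those of untreated skin. Gamma delta T-like cells had an Inhba level of 4.15 CPM (1.67 to 8.56) in oxazolone day 16, and the 6 neutrophil markers summed to 557 CPM in them. The chondrocyte-like Inhba interval (20.1 to 31.5) lay above theirs and the keratinocyte-like interval (4.62 to 11.2) overlapped it. As the marker sums differed between these classes, gamma delta T-like cells do not measure RNA from other cells in the other classes. The part of such RNA in these levels was not tested. With 5% of each class total taken off as free RNA of the library's profile, the chondrocyte-like log2 ratio was 4.65, while no keratinocyte-like ratio could be given.

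**Figure D2:**
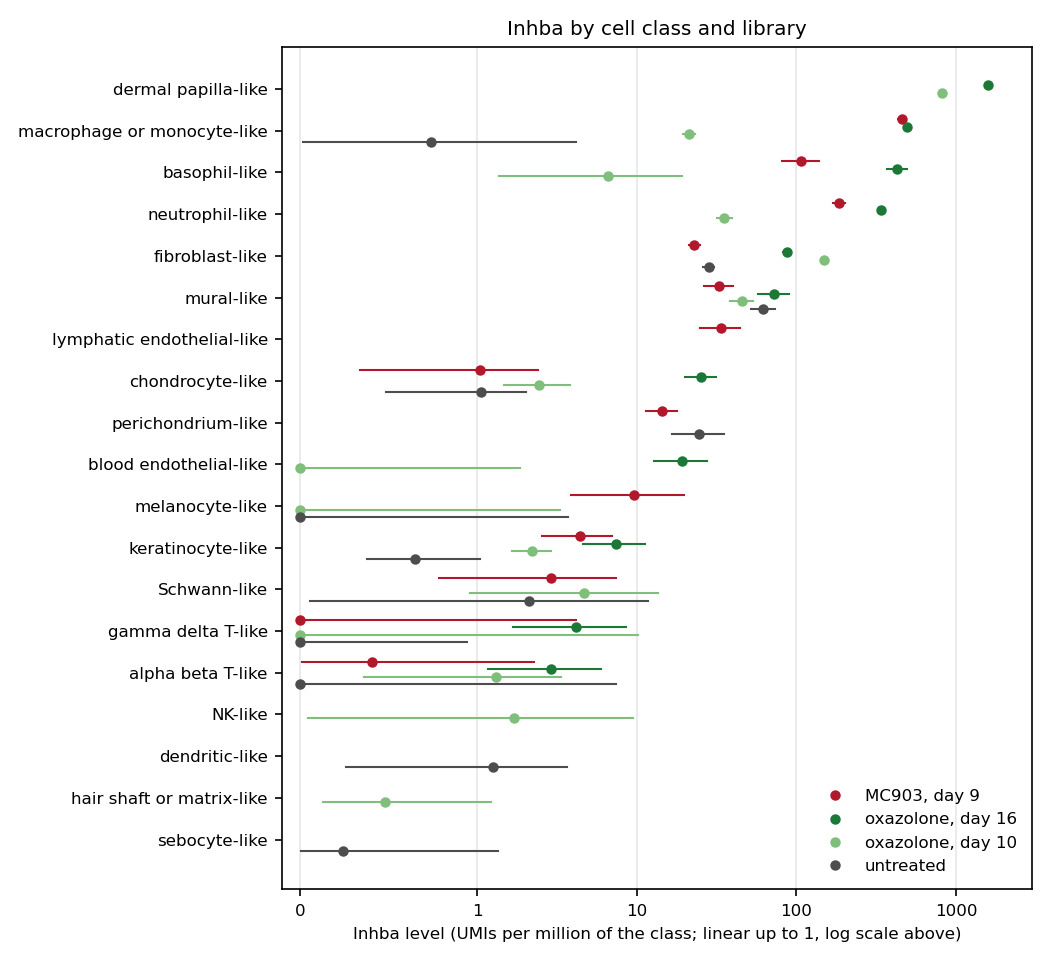
Inhba level (horizontal axis, CPM of the class, linear up to 1 and log scale above) by cell class and library for classes with at least 50 cells; points are levels and lines exact 95% Poisson intervals. Dermal papilla-like cells reach 1594 CPM and macrophage or monocyte-like cells 457 and 491 CPM in MC903 and oxazolone day 16, against 0.741 CPM in those of untreated skin.

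In fibroblast-like cells 43 members had at least 30 UMIs in MC903 and untreated skin together, and 5 were at least 2-fold higher and 6 at least 2-fold lower in MC903, where 10.6% of 15198 measured genes were higher and 10.3% lower. Within the MC903 and untreated cells of 1 shared cluster, led by Cxcl13 and Inmt, 11 of 39 measured members were higher and 5 lower. The share of all genes was not counted within that cluster, and the class shares are no background for it. In oxazolone day 16, 7 of 43 were higher and 11 lower, against 9.30% and 15.5% of all measured genes. In oxazolone day 10, 7 of 42 were higher and 11 lower, against 8.16% and 7.27%. Between oxazolone day 16 and day 10, 3 of 39 were higher and 3 lower, against 5.04% and 9.64%. The median log2 ratio of the measured members was 0.07, -0.07, -0.17 and -0.03 in these comparisons, beside 0.04, -0.21, -0.04 and -0.13 for all measured genes. The class median UMIs per cell were 21756, 35608 and 21951 in MC903, oxazolone day 16 and oxazolone day 10, against 11828 in untreated skin.

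Clusters were named from fixed marker lists. The 6 fibroblast markers, which named this class, summed to 19714 CPM in MC903, 28596 CPM in oxazolone day 16 and 37391 CPM in oxazolone day 10, against 38814 CPM in untreated skin. The class was not made of the same clusters in each library. A cluster led by Cxcl13 and Inmt held 968 of 1252 cells in MC903 and 212 of 2007 in untreated skin, while a cluster led by Efemp1 and Pi16 held 908 untreated cells and 19, 37 and 25 cells of MC903, oxazolone day 16 and oxazolone day 10. A cluster led by Cxcl5, Tnc and Saa3 held 264 of 357 cells in oxazolone day 16, 266 of 520 in oxazolone day 10 and 406 untreated cells. Ratios are therefore also given within 1 shared cluster, the one whose cell number in the scarcer library of the pair was highest, which is the Cxcl13/Inmt cluster for MC903 and the Cxcl5/Tnc cluster for oxazolone. Neutrophil markers in fibroblast-like cells summed to 2011, 1711 and 202 CPM in MC903, oxazolone day 16 and oxazolone day 10, against 307 CPM in untreated skin, while the 5 dermal papilla markers summed to 54.1, 115 and 279 CPM against 70.8 CPM. Their part in the member ratios was not tested.

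Of the TGF-beta ligands, Tgfb2 was the one at least 2-fold lower in the fibroblast-like class, in both oxazolone libraries. Its level was 173 CPM in MC903, 26.3 CPM in oxazolone day 16 and 64.8 CPM in oxazolone day 10, against 167 CPM in untreated skin. Both oxazolone libraries were thus below the other pair. The log2 ratio over untreated was 0.05 (-0.01 to 0.11) in MC903, -2.67 (-2.83 to -2.50) in oxazolone day 16 and -1.36 (-1.48 to -1.25) in oxazolone day 10, and within the Cxcl5/Tnc cluster it was -2.98 on day 16 and -2.36 on day 10. Tgfb1, the isoform best known from immune cells, stayed within 2-fold at 24.3, 20.2 and 26.9 CPM against 21.5 CPM. Tgfb3 was 20.2, 23.5 and 45.9 CPM against 30.3 CPM, also within 2-fold.

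Tgfb1 was at higher levels in leukocyte classes. In macrophage or monocyte-like cells it was 283 CPM in MC903, 216 CPM in oxazolone day 16 and 152 CPM in oxazolone day 10, against 136 CPM in untreated skin. The MC903 log2 ratio over untreated was 1.05 (0.83 to 1.29), that of day 16 was 0.66 and that of day 10 was 0.16. Basophil-like cells had 310 CPM in MC903, 422 CPM in oxazolone day 16 and 194 CPM in oxazolone day 10, a log2 ratio of day 16 over day 10 of 1.12 (0.75 to 1.50). Alpha beta T-like cells had 214 CPM on oxazolone day 16 and 98.6 CPM on day 10, a log2 ratio of 1.12 (0.91 to 1.33). Whole-library Tgfb1 was 62.6, 119 and 63.4 CPM in MC903, oxazolone day 16 and oxazolone day 10, against 36.6 CPM in untreated skin.

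Among BMP ligands, Bmp4 and Bmp2 were lower in fibroblast-like cells of both oxazolone libraries. Bmp4 was 104 CPM in MC903, 23.1 CPM in oxazolone day 16 and 20.6 CPM in oxazolone day 10, against 68.6 CPM in untreated skin. Its log2 ratio over untreated was 0.60 (0.52 to 0.69), -1.57 (-1.76 to -1.39) and -1.74 (-1.94 to -1.55) in that order, so MC903 lay above untreated skin and both oxazolone libraries below it. Bmp2 was 17.8, 4.00 and 7.73 CPM against 22.4 CPM, with log2 ratios of -0.33, -2.48 (-2.93 to -2.07) and -1.54 (-1.87 to -1.22). Bmp7 was low in oxazolone day 16 alone at class level: 42.5, 7.30 and 31.4 CPM against 40.5 CPM, a day 16 log2 ratio of -2.47 (-2.79 to -2.16). Within the Cxcl5/Tnc cluster Bmp7 was 8.55 CPM in 61 MC903 cells, 0.872 CPM in oxazolone day 16 and 12.5 CPM in oxazolone day 10, against 54.0 CPM in untreated cells, so there all treated libraries were low. Between the oxazolone days, day 16 was lower than day 10 for Bmp7 (-2.11, -2.45 to -1.78) and for Tgfb2 (-1.30, -1.49 to -1.12).

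MC903 values depended on the cluster read. In the Cxcl5/Tnc cluster Tgfb2 was 89.7 CPM in MC903 cells and 188 CPM in untreated cells, and Bmp2 was 2.14 and 16.8 CPM, although the class values of MC903 and untreated skin lay within 2-fold for both genes. Bmp4 was 51.8 CPM in MC903 and 40.4 CPM in untreated cells of that cluster, and 102 and 28.6 CPM in the Cxcl13/Inmt cluster.

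Bmp5 and Bmp6 differed by library in other ways. Bmp5 in fibroblast-like cells was 28.0 CPM in MC903, 27.2 CPM in oxazolone day 16 and 10.8 CPM in oxazolone day 10, against 28.5 CPM in untreated skin. Bmp6 was 3.40, 12.9 and 10.9 CPM against 12.6 CPM, a MC903 log2 ratio of -1.89 (-2.23 to -1.56). Bmp5 on oxazolone day 16 exceeded day 10 by a log2 ratio of 1.34 (1.04 to 1.64). Bmp3, an antagonistic member of the BMP group, was higher in each treated library, at 7.76, 8.95 and 13.1 CPM against 3.86 CPM. Its class ratio was not repeated within the Cxcl5/Tnc cluster, where oxazolone day 10 was at 2.45 CPM and untreated cells at 2.55 CPM.

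The activin subunit Inhbb was lower where Inhba was higher in oxazolone fibroblast-like cells. It was 41.7 CPM in MC903, 19.1 CPM in oxazolone day 16 and 17.0 CPM in oxazolone day 10, against 57.3 CPM in untreated skin, with log2 ratios of -0.46, -1.58 (-1.78 to -1.38) and -1.75 (-1.97 to -1.54). Within the Cxcl5/Tnc cluster the oxazolone ratios were -1.64 and -1.94. Within the same cluster Inhba stood at 90.0 CPM in oxazolone day 16 and 139 CPM in oxazolone day 10, against 10.5 CPM in untreated cells, log2 ratios of 3.09 and 3.72. Gdf10, a BMP3-related ligand, was 49.7, 31.9 and 19.9 CPM in fibroblast-like cells of MC903, oxazolone day 16 and oxazolone day 10, against 14.7 CPM in untreated skin. Its MC903 log2 ratio of 1.76 (1.59 to 1.93) for the class became -0.89 within the Cxcl13/Inmt cluster, at 53.6 CPM in MC903 and 99.5 CPM in untreated cells.

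Gdf15, a stress-induced ligand, was 7.10 CPM in MC903 fibroblast-like cells, 0.785 CPM in oxazolone day 16 and 0.493 CPM in oxazolone day 10, against 3.82 CPM in untreated skin. In macrophage or monocyte-like cells it was 305, 11.6 and 11.8 CPM against 75.6 CPM, so that MC903 was above and both oxazolone libraries were below untreated skin. The log2 ratios there were 2.01 (1.72 to 2.32), -2.70 (-3.02 to -2.37) and -2.68 (-3.01 to -2.34). Of the 1280 Gdf15 UMIs of MC903, 781 lay in the Arg1/Ccl24 cluster, at 446 CPM, where oxazolone day 16 had 11.3 CPM. Neutrophil-like cells had a Gdf15 level of 38.0 CPM on oxazolone day 16 and 3.71 CPM on day 10, a log2 ratio of 3.36 (2.87 to 3.89). The class was made of different clusters on these days: one led by Retnlg held 70 of 4221 cells on day 16 and 1408 of 1790 on day 10. In the shared cluster with 1067 and 203 cells 0 of 12 measured members were at least 2-fold higher on day 16, against 5 of 22 in the class. The share of all genes was counted for neither, so these counts cannot be set against each other. The median log2 ratio of all measured genes in the class was -0.59. The part of the cluster mix in the Gdf15 ratio was not tested.

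**Figure D3:**
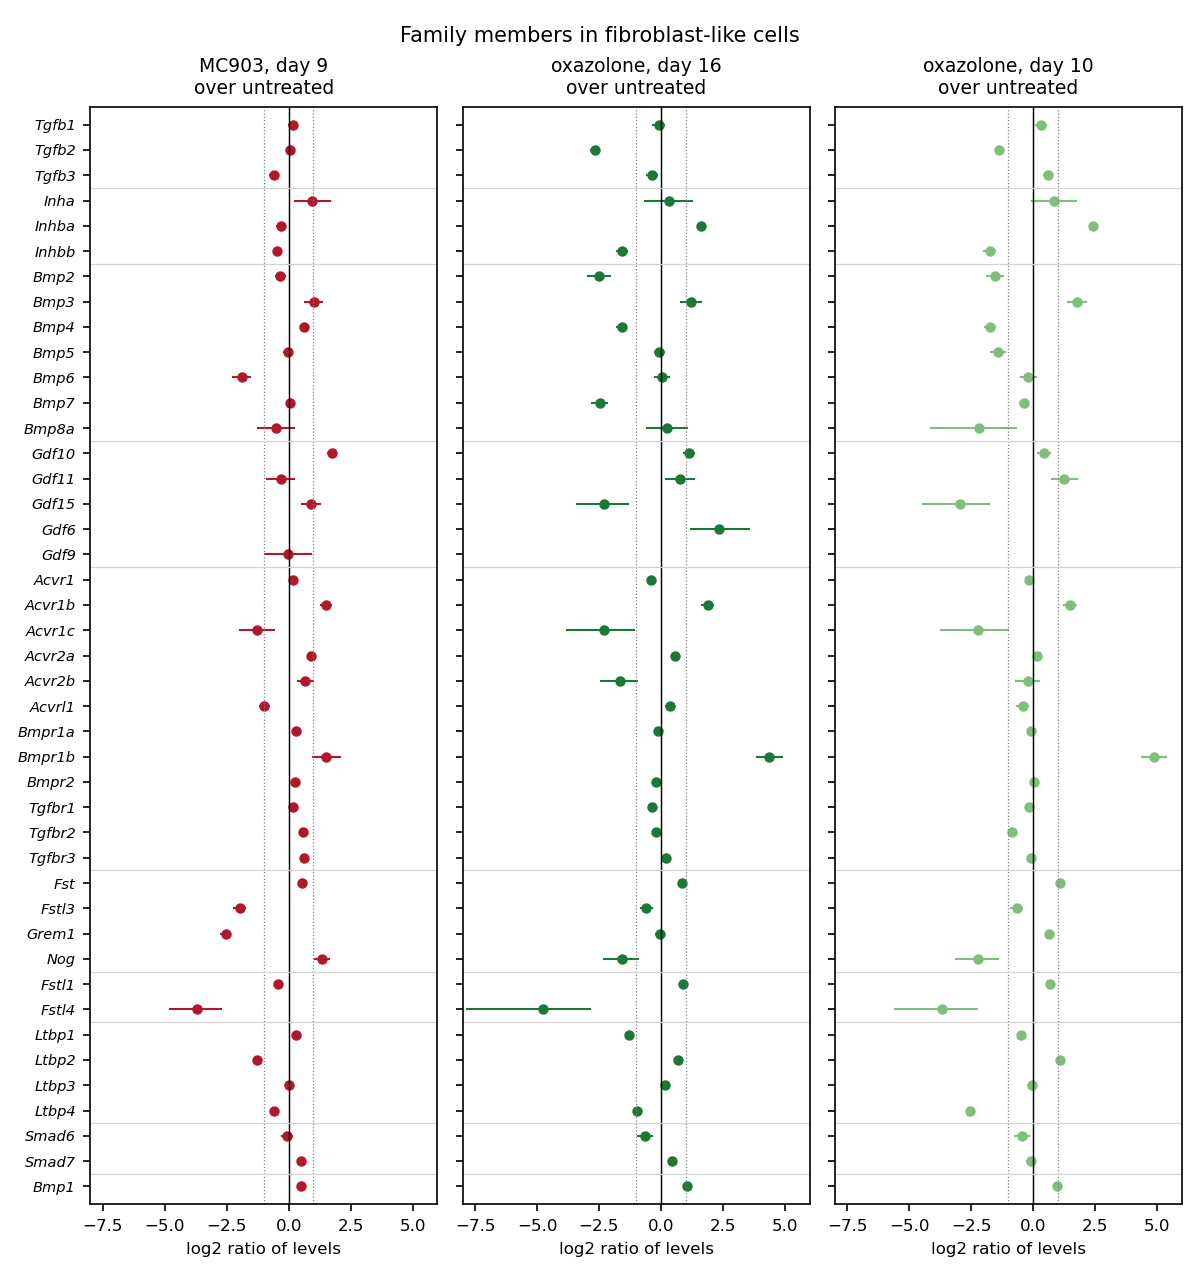
Log2 ratio of the level in MC903, oxazolone day 16 and oxazolone day 10 over untreated skin (horizontal axes) for measured members (vertical axis, grouped by role) in fibroblast-like cells, with exact 95% intervals for counting error; dotted lines mark 2-fold. Bmpr1b reaches 4.36 and 4.86 in the oxazolone panels, and Tgfb2, Bmp2 and Bmp4 lie left of the lower dotted line there and between the lines in MC903.

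Among receptors, Bmpr1b and Acvr1b stood out in fibroblast-like cells. Bmpr1b, a type I BMP receptor, had 137 UMIs (4.52 CPM) in MC903, 416 UMIs (32.6 CPM) in oxazolone day 16 and 560 UMIs (46.1 CPM) in oxazolone day 10, against 39 UMIs (1.59 CPM) in untreated skin. The log2 ratio was 1.51 (0.99 to 2.06), 4.36 (3.89 to 4.88) and 4.86 (4.39 to 5.37), and within the Cxcl5/Tnc cluster it was 4.29 and 5.03 for the oxazolone days. In MC903 the Cxcl13/Inmt cluster had 3.68 CPM against 9.82 CPM in untreated cells, and the Cxcl5/Tnc cluster had 18.7 CPM against 1.87 CPM. Acvr1b, the type I receptor of activins, was 30.7, 39.9 and 29.8 CPM against 10.7 CPM. Its log2 ratios of 1.51 (1.32 to 1.72), 1.89 (1.68 to 2.11) and 1.47 (1.24 to 1.71) were close to those within the shared clusters, 1.34, 1.85 and 1.44, so Acvr1b was higher in every treated library by both readings.

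The TGF-beta receptors of fibroblast-like cells stayed within 2-fold of untreated skin. Tgfbr1 was 102 CPM in MC903, 70.9 CPM in oxazolone day 16 and 80.9 CPM in oxazolone day 10, against 90.4 CPM in untreated skin. Tgfbr2 was 774, 453 and 290 CPM against 524 CPM, and Tgfbr3 (betaglycan, a co-receptor that presents TGF-beta 2) was 1277, 947 and 762 CPM against 820 CPM. Within the Cxcl5/Tnc cluster Tgfbr2 was higher than in untreated cells, with log2 ratios of 0.84 on day 16 and 0.25 on day 10, whereas the class ratios were -0.21 and -0.86. Acvr2b on oxazolone day 16 was lower, at 1.65 CPM against 5.21 CPM in untreated skin, a log2 ratio of -1.66 (-2.40 to -0.99). Acvr1c, a type I receptor, had 29, 6 and 6 UMIs in MC903, oxazolone day 16 and oxazolone day 10, against 57 UMIs in untreated skin.

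**Figure D4:**
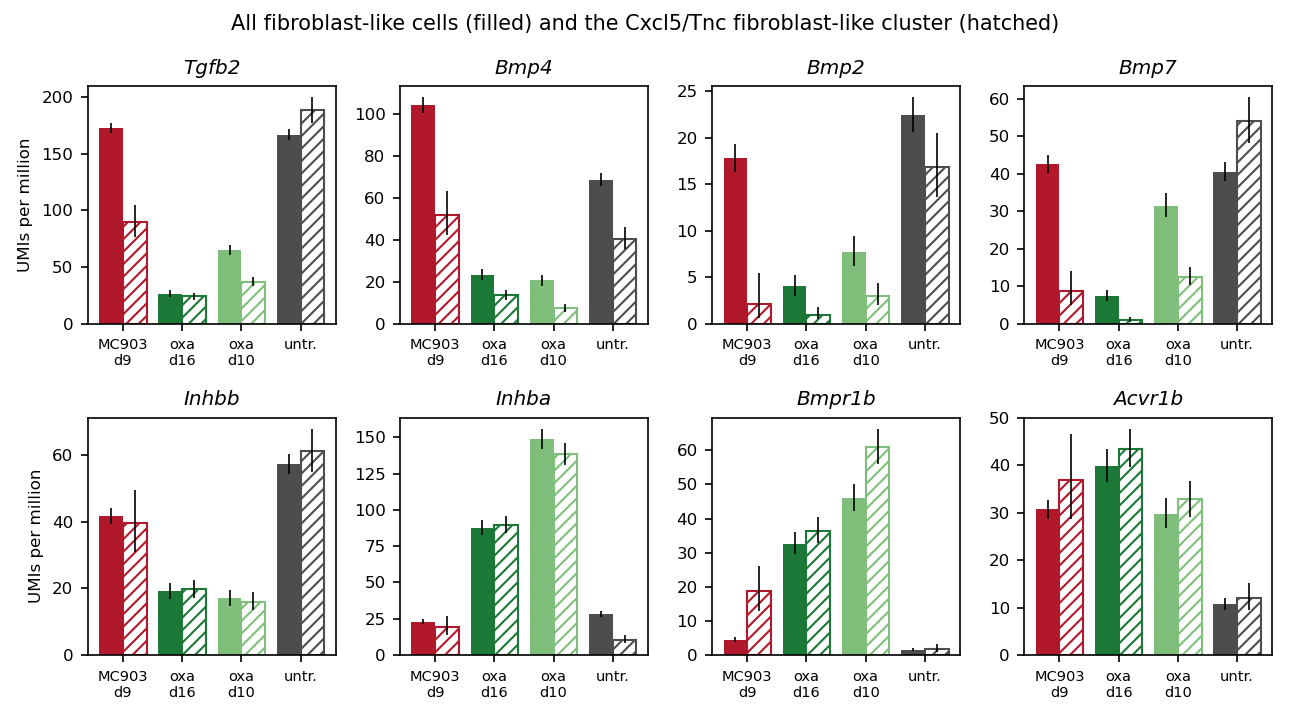
Level of 8 members (vertical axes, CPM, from 0) in all fibroblast-like cells (filled bars) and in the Cxcl5/Tnc cluster alone (hatched bars) of each library, with exact 95% Poisson intervals. Tgfb2, Bmp4, Bmp2 and Inhbb are lower and Inhba, Bmpr1b and Acvr1b higher in both oxazolone libraries than in untreated skin in both sets of bars.

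Receptors of immune cells varied as well. Tgfbr1 in macrophage or monocyte-like cells was 97.5 CPM in MC903, 50.4 CPM in oxazolone day 16 and 125 CPM in oxazolone day 10, against 178 CPM in untreated skin, with a day 16 log2 ratio of -1.82 (-2.01 to -1.62) that was -1.94 within the Ccl8/Cd163 cluster. Acvr2a, a type II activin receptor, was 71.0, 42.1 and 172 CPM against 119 CPM, and day 16 lay below day 10 by a log2 ratio of -2.03 (-2.12 to -1.94). That ratio was -0.65 within the Ccl8/Cd163 cluster. In gamma delta T-like cells Acvr2a was 530 CPM in 102 cells of MC903 and 170 CPM in 683 cells of untreated skin, a log2 ratio of 1.64 (1.47 to 1.81). Of these cells, 67 and 622 lay in a cluster with Trdc and Trdv4 among its leading genes. The other 35 and 61 lay in a cluster with Il23r and Il17a among them, and the part of this mix was not tested. Tgfbr2 in neutrophil-like cells was 24.6 CPM in oxazolone day 16 and 77.4 CPM in oxazolone day 10, a log2 ratio of -1.65 (-1.80 to -1.51). The neutrophil-like clusters differed between these days, as given for Gdf15, and their part in the Tgfbr2 ratio was not tested. Acvr1c in melanocyte-like cells was 198 CPM in 67 cells of oxazolone day 10 and 25.0 CPM in 227 cells of untreated skin, a log2 ratio of 2.99 (2.39 to 3.64).

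The secreted antagonists of fibroblast-like cells did not move as a group. Follistatin (Fst), which binds activins, was 126 CPM in MC903, 159 CPM in oxazolone day 16 and 184 CPM in oxazolone day 10, against 87.6 CPM in untreated skin, past 2-fold on day 10 alone (log2 ratio 1.07, 0.98 to 1.16). Noggin (Nog), a BMP antagonist, was 13.7, 1.81 and 1.15 CPM against 5.37 CPM, higher in MC903 (1.35, 1.06 to 1.64) and lower in oxazolone day 16 (-1.57, -2.28 to -0.93) and day 10 (-2.22, -3.13 to -1.42). Gremlin 1 (Grem1), another BMP antagonist, was 8.55, 48.5 and 77.5 CPM against 49.8 CPM. Its class values hide the clusters: the Efemp1/Pi16 cluster of untreated skin alone had 90.8 CPM, while the Cxcl5/Tnc cluster had 59.5 CPM in oxazolone day 16 and 104 CPM in oxazolone day 10, against 4.76 CPM in untreated cells. The log2 ratio within that cluster was 3.64 on day 16 and 4.45 on day 10, and for MC903 the class ratio of -2.54 (-2.74 to -2.35) became 4.38 within the Cxcl13/Inmt cluster, from an untreated level of 0.446 CPM. Fstl3, a follistatin relative, was 7.40 CPM in MC903 and 29.0 CPM in untreated skin, a log2 ratio of -1.97 (-2.19 to -1.75) that was 0.00 within the Cxcl13/Inmt cluster.

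Fstl1, a secreted glycoprotein abundant in stroma, was 782 CPM in MC903 fibroblast-like cells, 1966 CPM in oxazolone day 16 and 1688 CPM in oxazolone day 10, against 1047 CPM in untreated skin, within 2-fold in each library. Fstl4 had 10, 2 and 4 UMIs against 104 UMIs in untreated skin, log2 ratios of -3.68 (-4.78 to -2.74), -4.75 (-7.82 to -2.86) and -3.68 (-5.59 to -2.29). Most Fstl4 lay in melanocyte-like cells, at 815 CPM in MC903 and 1497 CPM in oxazolone day 10, against 1094 CPM in untreated skin.

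Of the latent TGF-beta binding proteins, Ltbp1 and Ltbp4 were at least 2-fold lower in 1 oxazolone library each, and Ltbp2 differed in direction between models. Ltbp1 in fibroblast-like cells was 329 CPM in MC903, 109 CPM in oxazolone day 16 and 189 CPM in oxazolone day 10, against 268 CPM in untreated skin, a day 16 log2 ratio of -1.30 (-1.39 to -1.22). Ltbp4 was 170, 130 and 43.5 CPM against 257 CPM, a day 10 log2 ratio of -2.56 (-2.69 to -2.43) that was -2.97 within the Cxcl5/Tnc cluster. Ltbp2 was 19.8, 76.9 and 102 CPM against 47.7 CPM, lower in MC903 (-1.27, -1.42 to -1.13) and higher in oxazolone day 10 (1.10, 0.98 to 1.21). Ltbp3 lay between 43.7 and 50.5 CPM in the 4 libraries. Bmp1, the protease that trims procollagens and frees BMPs from chordin, was 176, 259 and 245 CPM against 125 CPM, past 2-fold on oxazolone day 16 (1.05, 0.98 to 1.12). The inhibitory Smad gene Smad7 was 61.7, 60.0 and 41.4 CPM against 43.9 CPM, within 2-fold. Gdf6 rested on few molecules, with 26 UMIs on oxazolone day 16, against 10 UMIs in untreated skin, a log2 ratio of 2.33 (1.23 to 3.54).

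Other genes of the pathway were taken from 8 lists with 52 genes. Among genes that BMP signals are known to induce, 0 of 7 measured were at least 2-fold higher and 4 lower in oxazolone day 16 fibroblast-like cells, 1 of 8 higher and 4 lower in oxazolone day 10, and 1 of 8 higher and 1 lower in MC903. Of all measured genes 9.30% were higher and 15.5% lower in oxazolone day 16, 8.16% and 7.27% in oxazolone day 10, and 10.6% and 10.3% in MC903, which is the background of the list counts that follow too. Id1, a direct BMP target, was 76.4 CPM in MC903, 5.49 CPM in oxazolone day 16 and 13.7 CPM in oxazolone day 10, against 74.1 CPM in untreated skin. Its oxazolone log2 ratios were -3.75 (-4.12 to -3.41) and -2.43, and within the Cxcl5/Tnc cluster -4.94 and -4.02. Id2, Id4 and Hey1 were also at least 2-fold lower on day 16, and Id4, Msx1 and Hey1 on day 10. Atoh8 in MC903 was the 1 higher gene, at 17.6 CPM against 3.13 CPM in untreated skin, and on day 10 it was Msx2, at 1.32 CPM against 0.651 CPM, with a log2 interval of -0.08 to 2.11.

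Genes that TGF-beta and activin are known to induce did not share a direction in fibroblast-like cells: of 7 measured, 1 was higher and 1 lower in MC903, 1 higher and 1 lower in oxazolone day 16, and 2 higher and 0 lower in oxazolone day 10. Tgfbi was 80.3 CPM in MC903, 57.4 CPM in oxazolone day 16 and 129 CPM in oxazolone day 10, against 252 CPM in untreated skin, where it was highest. Of the further secreted antagonists 2, 2 and 1 of 8 measured were higher and 0, 4 and 4 lower in MC903, oxazolone day 16 and oxazolone day 10. Bmper was 86.4, 184 and 77.1 CPM against 38.2 CPM, and Nbl1 was 433, 79.0 and 128 CPM against 326 CPM. Of the genes of latency, storage and activation 1, 3 and 3 were higher and 0 lower, of 9, 9 and 8 measured. Thbs1, an activator of latent TGF-beta, was 367, 398 and 218 CPM against 123 CPM, and Fbn2 was 97.2, 200.4 and 207 CPM against 79.2 CPM.

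In macrophage or monocyte-like cells 13, 21 and 20 members were measured in MC903, oxazolone day 16 and oxazolone day 10 over untreated skin. In MC903, 5 were higher and 1 lower, against 8.11% and 10.4% of all measured genes. In oxazolone day 16, 5 were higher and 8 lower, against 7.74% and 24.9%, and in day 10, 4 were higher and 4 lower, against 6.78% and 9.74%. Of 25 measured members 2 were higher and 4 lower on oxazolone day 16 than on day 10, against 6.21% and 23.1%. The median log2 ratio of the members was 0.54, -0.50, -0.13 and -0.23, beside -0.09, -0.39, -0.04 and -0.42 for all genes.

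Tgfb3 in macrophage or monocyte-like cells was 22.6 CPM in MC903, 14.6 CPM in oxazolone day 16 and 4.21 CPM in oxazolone day 10, against 1.48 CPM (2 UMIs) in untreated skin. Like Inhba it was higher on oxazolone day 16 than on day 10 in the class, but its highest library was MC903. The oxazolone day 16 log2 ratio was 3.31 (1.44 to 6.36) and the ratio of day 16 over day 10 was 1.80 (1.49 to 2.12), which was -0.09 within the Ccl8/Cd163 cluster. Smad7 was 83.4, 87.7 and 56.4 CPM against 39.3 CPM, past 2-fold in MC903 (1.09) and oxazolone day 16 (1.16), while within that cluster the day 16 ratio was -1.76. Of the pathway lists, Thbs1 was 1331 CPM in MC903, 609 CPM in oxazolone day 16 and 431 CPM in oxazolone day 10, against 82.2 CPM in untreated skin. Pmepa1, a TGF-beta-induced inhibitor, was 55.1, 95.2 and 45.6 CPM against 22.2 CPM, and Furin, which cleaves the precursors, was 378, 316 and 135 CPM against 128 CPM. Ltbp4 in these cells was 1.12 CPM on oxazolone day 16 and 0.883 CPM on day 10, against 7.41 CPM in untreated skin. Gdf3 on oxazolone day 16 had 290 UMIs, against 1 UMI in untreated skin, a log2 ratio of 3.65 (1.16 to 8.96).

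In keratinocyte-like cells 1 of 35 measured members was at least 2-fold higher and 16 lower in MC903, against 5.11% and 16.8% of all measured genes. Within 1 cluster shared by MC903 and untreated skin, 2 of 25 were higher and 6 lower, with no share of all genes counted there. In oxazolone day 16, 6 of 35 were higher and 8 lower, against 10.5% and 13.9%, and in oxazolone day 10, 7 of 36 were higher and 5 lower, against 11.6% and 8.82%. Of 34 members 5 were higher and 4 lower on oxazolone day 16 than on day 10, against 5.04% and 10.6%. The median log2 ratio of the measured members was -0.56, 0.17, 0.29 and -0.12, beside -0.12, -0.06, 0.13 and -0.18 for all genes. Counts of cells were uneven, with 100, 94 and 895 cells in MC903, oxazolone day 16 and oxazolone day 10, against 1765 in untreated skin, and the clusters that held them differed.

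Inhbb was higher in keratinocyte-like cells of both oxazolone libraries. It was 6.96 CPM in MC903, 65.4 CPM in oxazolone day 16 and 44.8 CPM in oxazolone day 10, against 10.3 CPM in untreated skin, with oxazolone log2 ratios of 2.67 (2.40 to 2.94) and 2.12 (1.93 to 2.32), and of 1.51 and 1.01 within the shared cluster, led by Krt17 and Lgr5. In fibroblast-like cells Inhbb was lower in the same libraries. Smad7 was lower in each treated library, at 20.9, 35.6 and 41.2 CPM against 81.9 CPM. Its log2 ratios were -1.97, -1.20 and -0.99, the last within 2-fold, and within the shared clusters -2.17, -1.91 and -1.89. Fst was 36.8, 60.7 and 108 CPM against 142 CPM, and Ltbp1 was 3.09, 12.7 and 57.0 CPM against 39.1 CPM, a MC903 log2 ratio of -3.66 (-4.62 to -2.85).

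Several smaller keratinocyte-like values rest on few molecules or on clusters. Bmpr1b had 1 UMI in MC903 and 160 in untreated skin, a log2 ratio of -4.56 (-9.88 to -2.06), and Fstl4 had 0 UMIs against 233, a log2 ratio of at most -3.52 with 3 UMIs set as the floor of the MC903 class. Bmp6 was 52.3 CPM on oxazolone day 16 and 8.94 CPM in untreated skin, a log2 ratio of 2.55 (2.25 to 2.85) that was 0.07 within the Krt17/Lgr5 cluster. Of the response genes, Pmepa1 was 121, 411 and 152 CPM in MC903, oxazolone day 16 and oxazolone day 10, against 31.7 CPM in untreated skin, while Id1 was 92.5, 69.8 and 66.7 CPM against 312 CPM. Id1 was thus lower in every treated library in keratinocyte-like cells, and in both oxazolone libraries in fibroblast-like cells. Within the Krt17/Lgr5 cluster its oxazolone log2 ratios were -3.62 and -3.75. Fstl1 was 3.35, 31.2 and 42.6 CPM against 8.75 CPM, past 2-fold in opposite directions in MC903 and oxazolone, and its oxazolone log2 ratios within the cluster were 0.21 and 0.83. Ltbp2 on oxazolone day 10 was 1.77 CPM, against 18.5 CPM in untreated skin (-3.39, -3.89 to -2.92). Grem1 had 0 UMIs in MC903 against 191 UMIs in untreated skin, a log2 ratio of at most -3.23.

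In chondrocyte-like cells 2 of 34 measured members were at least 2-fold higher and 3 lower in MC903, against 6.22% and 11.3% of all measured genes. In oxazolone day 16, 2 of 35 were higher and 3 lower, against 3.88% and 11.2%, and in oxazolone day 10, 2 of 35 were higher and 9 lower, against 3.21% and 5.14%. Of 33 members 4 were higher and 3 lower on oxazolone day 16 than on day 10, against 4.06% and 7.53%. Bmp2 in chondrocyte-like cells, a class of 1 cluster, was 398 CPM in 288 cells of MC903, 109.5 CPM in 125 cells of oxazolone day 16 and 48.9 CPM in 450 cells of oxazolone day 10, against 120.2 CPM in 771 cells of untreated skin. The log2 ratio was 1.73 (1.62 to 1.84) in MC903 and -1.30 (-1.47 to -1.13) in oxazolone day 10. Tgfbr3 there was 1188 CPM in MC903 and 401 CPM in untreated skin, a log2 ratio of 1.57 (1.50 to 1.63), while Bmp6 was 0.620 CPM in MC903 and 10.9 CPM in untreated skin from 3 and 93 UMIs (-4.14, -6.45 to -2.55). Perichondrium-like cells had a Gdf5 level of 31.0 CPM in MC903 and 138 CPM in untreated skin, a log2 ratio of -2.16 (-2.47 to -1.85). In dermal papilla-like cells Bmp6 was 258 CPM on oxazolone day 16 and 888 CPM on day 10 (-1.79, -1.96 to -1.61), whereas Bmp7 was 191 and 57.2 CPM (1.74, 1.44 to 2.04).

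The antagonist Grem1 and the cartilage ligand Gdf6 also differed in chondrocyte-like cells. Grem1 was 1.86 CPM in MC903, 11.7 CPM in oxazolone day 16 and 30.6 CPM in oxazolone day 10, against 7.89 CPM in untreated skin. The log2 ratio was -2.08 (-3.27 to -1.07) in MC903 and 1.96 (1.56 to 2.37) in oxazolone day 10, on either side of untreated skin. Gdf6 was 5.42 CPM in oxazolone day 10 and 20.9 CPM in untreated skin (-1.95, -2.47 to -1.46). Bmp4 was 14.3, 2.85 and 3.23 CPM against 9.30 CPM, lower with oxazolone as in fibroblast-like cells. The 6 fibroblast markers in chondrocyte-like cells summed to 4870 CPM in MC903, 3613 CPM in oxazolone day 16 and 4593 CPM in oxazolone day 10. In untreated skin they summed to 7692 CPM, and their part in the Bmp4 values was not tested. Perichondrium-like cells had an Inhbb level of 15.1 CPM in MC903 and 54.8 CPM in untreated skin (-1.86, -2.34 to -1.38).

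In vessel wall and pigment cells single members differed by library. Mural-like cells, the pericytes and smooth muscle of vessels, had log2 Bmp6 ratios over untreated of -2.61 (-3.46 to -1.83) in MC903, -1.93 (-3.05 to -0.97) in oxazolone day 16 and -1.53 (-2.13 to -0.96) in oxazolone day 10, so every treated library was lower. Blood endothelial-like cells had 99 UMIs of Bmp6 in 86 cells of oxazolone day 16 and 32 UMIs in 109 cells of oxazolone day 10, a level log2 ratio of 2.03 (1.45 to 2.66). In melanocyte-like cells Tgfbr3 was 188 CPM in MC903 and 60.0 CPM in untreated skin, a log2 ratio of 1.65 (1.20 to 2.11). Fst there had 25 UMIs in MC903 and 5 UMIs in untreated skin (2.78, 1.37 to 4.52). In the same melanocyte-like cells the 6 fibroblast markers summed to 1256 CPM in MC903 and 465 CPM in untreated skin. The 6 neutrophil markers summed to 15352 and 86.0 CPM, and the part of either in the Tgfbr3 and Fst ratios was not tested. Mural-like Bmpr1b was 28.1 CPM in oxazolone day 10 and 8.48 CPM in untreated skin, a log2 ratio of 1.73 (0.99 to 2.55), but oxazolone day 16 had 4 UMIs of it in 50 cells.

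In T cell classes some receptors were at least 2-fold lower on oxazolone day 16, where the median log2 ratio of all measured genes was itself -0.36 in alpha beta and -0.53 in gamma delta T-like cells. Tgfbr1 in alpha beta T-like cells was 60.2 CPM in MC903, 38.7 CPM in oxazolone day 16 and 89.7 CPM in oxazolone day 10, against 138 CPM in untreated skin. The log2 ratios were -1.20 (-1.62 to -0.77) in MC903 and -1.84 (-2.30 to -1.37) in oxazolone day 16, day 10 stayed within 2-fold (-0.62), and the MC903 value was 0.05 where putative doublets were kept. The gamma delta T-like class was not made of the same clusters in each library. The cluster with Trdc and Trdv4 among its leading genes held 1 cell of oxazolone day 16, 22 of day 10 and 622 untreated cells. The cluster with Il23r and Il17a among them held 160, 32 and 61 cells. The part of this mix in the class ratios that follow was not tested. In gamma delta T-like cells Bmpr2 was 23.1 CPM in oxazolone day 16 and 88.3 CPM in oxazolone day 10, against 93.5 CPM in untreated skin, a day 16 log2 ratio of -2.01 (-2.53 to -1.54). Bmpr1a there was 20.2 and 77.3 CPM against 45.8 CPM, so the oxazolone days lay on either side of untreated skin. Fstl1 in these cells had 11 UMIs in oxazolone day 16 and 134 UMIs in untreated skin (-2.39, -3.43 to -1.51). Smad7 was 155 CPM in 54 cells of oxazolone day 10 and 366 CPM in untreated skin, a log2 ratio of -1.25 (-1.66 to -0.86). In Schwann-like cells, the glia of skin nerves, Bmpr1a was 161 CPM in MC903 and 127 CPM in oxazolone day 10, against 59.2 CPM in untreated skin. Fstl1 there was 44.7 and 68.2 CPM against 157 CPM, with log2 ratios of -1.81 (-2.32 to -1.30) and -1.20 (-1.77 to -0.64). The day 10 ratio was not repeated with cells weighted equally. The 6 fibroblast markers in these Schwann-like cells summed to 566 and 1579 CPM against 2029 CPM, and their part in the Fstl1 ratios was not tested.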

How the data were processed

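The deposited files held raw UMI counts per gene and cell barcode, made by the authors with Cell Ranger, for 4 libraries. Per the file headers, version 7.2.0 made the untreated and oxazolone day 10 files and 8.0.0 the other pair, so version and group cannot be told apart where MC903 or oxazolone day 16 is set against untreated skin or oxazolone day 16 against day 10; the submitters' processing notes name version 8.0 and the build mm10.

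Barcodes under 300 detected genes or above 15% mitochondrial UMIs were left out, and the cells with the highest simulated-doublet scores were left out at 0.8% per 1000 barcodes of a library (1766 in all). Cells were clustered with scanpy 1.11.5 and leidenalg 0.10.2 on 2000 variable genes, 30 components, 15 neighbours and resolution 1.0, with the member genes left out, and clusters were named from marker lists. Counts were summed per class and library and given as counts per 1000000 UMIs (CPM). A member was measured with at least 30 UMIs in a pair of libraries and counted past 2-fold, in classes of at least 50 cells in both, without a test. Intervals (exact Poisson, Clopper-Pearson or conditional binomial, 95%, scipy 1.17.1) cover counting error only, and 3 UMIs per class stood for a count of 0.

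The ratio calculation was checked on simulated counts. Members and lists were chosen with earlier results of these data known. The text names, per comparison, the 6 members with the largest ratio in fibroblast-like cells, with 17 fixed members, and up to 4 in other classes, and some others described beside them. Results for 2 genes, 1 of them a member, are not reported here, while counts over the lists include them. Alternatives changed the mitochondrial limit, doublet removal, resolution, count minimum, cell weights, scaling and free RNA; reading 1 shared cluster was chosen after seeing the data.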

Additional observations from a re-analysis of the deposited data

Results flagged for a closer look

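In 9 cases a member was past 2-fold in opposite directions in 2 treated libraries relative to the 1 untreated library, and in none was the difference tested. No count over all genes stands beside these 9, so they are not a result about the family. In fibroblast-like cells the log2 ratio of Nog was 1.35 in MC903 and -2.22 in oxazolone day 10, and that of Ltbp2 was 1.10 in oxazolone day 10 and -1.27 in MC903. In macrophage or monocyte-like cells Gdf15 was 2.01 in MC903 and -2.70 in oxazolone day 16. In chondrocyte-like cells Bmp2 was 1.73 in MC903 and -1.30 in oxazolone day 10, and Grem1 was 1.96 in oxazolone day 10 and -2.08 in MC903. In keratinocyte-like cells Bmp4 was 1.51 in oxazolone day 10 and -1.83 in MC903, Bmp6 was 2.55 in oxazolone day 16 and -1.80 in MC903, and Fstl1 was 2.28 in oxazolone day 10 and -1.39 in MC903. Within the Krt17/Lgr5 cluster these oxazolone ratios of Bmp6 and Fstl1 stayed within 2-fold. In melanocyte-like cells Tgfbr3 was 1.65 in MC903 and -1.43 in oxazolone day 10.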

How the results depend on the processing

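With 1 library per group no replicate could be left out. No paired analysis was possible because each group has 1 library and no result comes from a test. The cause of the changes below was not tested. Within 1 shared cluster, chosen after seeing the data, the log2 ratio turned to -0.11 for Inhba in neutrophil-like cells (day 16 over day 10, while another shared cluster had 425 CPM on day 16 and 169 CPM on day 10), 4.38 for Grem1, 0.0015 for Fstl3 and -0.89 for Gdf10 in MC903 fibroblast-like cells, and -0.087 for Tgfb3 in macrophage or monocyte-like cells (day 16 over day 10). At resolution 2 Gdf10 in MC903 fibroblast-like cells was -0.029. Without doublet removal Tgfbr1 in MC903 alpha beta T-like cells was 0.054 and Fst in oxazolone day 10 Schwann-like cells was -0.36, and with cells weighted equally Fstl1 in oxazolone day 10 Schwann-like cells was 0.068.

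Counts of members past 2-fold moved as follows, over untreated unless day 16 over day 10 is named. No share of all genes stands beside these counts. Within 1 shared cluster 11 were higher in MC903 fibroblast-like cells. In keratinocyte-like cells 2 were higher and 6 lower in MC903, 9 lower in oxazolone day 10 and 3 higher for day 16 over day 10. In macrophage or monocyte-like cells 2 were higher and 3 lower in oxazolone day 16, 0 higher in day 10, and 1 higher and 0 lower for day 16 over day 10, while MC903 shared no cluster of 50 cells. With no count minimum 6 were higher in fibroblast-like and 10 in keratinocyte-like cells for day 16 over day 10, 3 were higher in MC903 and 9 lower in oxazolone day 10 keratinocyte-like cells, and in macrophage or monocyte-like cells 9 were lower in MC903, 7 lower in oxazolone day 10, and 4 higher and 11 lower for day 16 over day 10. With a minimum of 10 UMIs 4 were higher and 9 lower for day 16 over day 10 and 5 lower in MC903 macrophage or monocyte-like cells, and 9 lower in oxazolone day 10 keratinocyte-like cells. With cells weighted equally 6 were lower in fibroblast-like and 7 in keratinocyte-like cells for day 16 over day 10, and 8 lower in oxazolone day 10 keratinocyte-like cells. With free RNA taken off, in macrophage or monocyte-like cells 2 were higher and 1 lower in oxazolone day 10, 0 lower in MC903 and 5 lower in oxazolone day 16. Scaling to the median ratio gave 7 higher and 2 lower for day 16 over day 10 in macrophage or monocyte-like cells. With at most 10% mitochondrial UMIs, at resolution 0.5 and at resolution 2, 2 were lower in MC903 macrophage or monocyte-like cells. Resolution 0.5 gave 2 higher in MC903 keratinocyte-like cells, and resolution 2 gave 8 lower in oxazolone day 10 keratinocyte-like cells. Shares of leading classes were counted as moved in 124 cases and as the same in 63 without doublet removal. At resolution 0.5 they moved in 52 and stayed in 135. CPM levels moved in 104 cases and stayed in 83 with cells weighted equally, and moved in 15 and stayed in 150 at resolution 0.5. Thinned shares moved in 104 cases and stayed in 50 when cells were thinned to 2000 UMIs. Depth limits the classes with few cells, such as the macrophage or monocyte-like ratios over untreated skin, which rest on 139 untreated cells.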
